A study of Drosophila melanogaster with 42 samples.

Results

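The proteasome genes described here are the 41 of 15061 genes in the deposited expression tables whose symbol begins with Prosalpha, Prosbeta, Pros, Rpn or Rpt followed by the subunit's letter or number. By name, 28 of them encode general subunits and 13 encode paralogs of a general subunit, the form often called testis-specific in flies. The rule then set apart members with a mean under 1 FPKM (fragments per kilobase of transcript scaled to the mapped fragments of the library) in heads of both father genotypes. It took 10 members: 9 of the 13 paralogs and Prosalpha1, a general subunit listed at 0 in every library, as was CG30382 (now Prosalpha1R), which has the same locus. The 27 other general subunits had group means of at least 32.1 FPKM in heads. Whether the 0 of Prosalpha1 and CG30382 is their level was not tested, and it is not read as a lack of expression. The other 4 paralogs, Pros28.1A, Prosalpha6T, Rpt3R and Rpt4R, averaged at least 1 FPKM in one or both head tables. Just inside the cut was Prosalpha3T, with a mean of 0.487 FPKM in heads from dATF-2KO fathers and 0.485 FPKM in heads from w1118 fathers. Just outside it was Rpt3R, with 0.992 and 1.07 FPKM, in the same order of genotypes. A further 8 proteasome genes are listed under other symbols (CG17331 for Prosbeta4, Tbp-1 for Rpt5, Mov34 for Rpn8, CG13349 for Rpn13, CG13779 for Sem1, CG30382, CG31742 for Prosbeta5R2 and CG6789 for Rpn13R); they are not members and are used only as counterparts or beside them.

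The proteasome is the protease complex that degrades proteins tagged with ubiquitin. Its core particle is a barrel of alpha rings, which gate the entrance, around beta rings, whose beta1, beta2 and beta5 subunits carry the protease sites. The regulatory particle on the ends of the barrel has a base with a ring of Rpt ATPases that unfold the substrate and a lid of Rpn subunits that help to hold the substrate and remove its ubiquitin. In Drosophila, several subunits have a second gene expressed in the male germline, where caspase activity and protein turnover accompany the individualization of sperm.

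RNA was sequenced from male offspring of restrained or unrestrained dATF-2KO fathers and of restrained or unrestrained w1118 fathers. dATF-2KO is a mutation of Atf-2, a stress-responsive transcription factor, and w1118 is the white-eyed control strain. All mothers were w1118, restrained fathers had been held still in 3 sessions of 10 hours, and the labels give the genotype of the fathers only, not of the offspring. The paper states that dATF-2KO removes the whole gene, and it used homozygous males in its eye pigment cross. If the fathers here were homozygous too, their sons carried the deletion from them. Genotype of father and of son then cannot be told apart. Each library came from 50 males of 5 to 6 days per the sample labels, parted into heads and all other parts of the body, so the testis was in the other parts but was not dissected. Groups had 5 libraries each, except for other parts from w1118 fathers, for which the labels list 6 restrained and 6 unrestrained libraries. Columns of that last table carry no sample names, so only the authors' mean of its restrained group is given, with no error and no test. The labels call the pools biological replicates, but whether separate crosses gave rise to them is not stated. The p-values here cover only how much such pools vary, which may be technical.

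Read depth is unknown, since FPKM values keep no counts. FPKM summed over all genes came to 1014446 to 1112219 per library in other parts from dATF-2KO fathers, and to 681793 to 744159 in heads. The tissue labels fitted the marker genes: 11 photoreceptor markers summed to 35128 to 37937 FPKM in heads and to 19.5 to 21.97 FPKM in other parts from dATF-2KO fathers, while 20 markers of the testis germline summed to 5955 to 7664 FPKM in those other parts and to 69.4 to 99.9 FPKM in heads. Atf-2 itself had 69.1 to 75.0 FPKM in heads from dATF-2KO fathers and 66.7 to 74.7 FPKM in heads from w1118 fathers, so its level does not tell the genotypes apart and libraries go by their labels. A library of restrained dATF-2KO fathers stood apart in each tissue, both numbered replicate 3: 7 egg and yolk genes summed to 3091 FPKM in other parts, against at most 12.9 FPKM in any unrestrained library, and to 1216 FPKM in heads, against at most 61.8 FPKM.

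The general subunits were abundant everywhere and the paralogs were abundant only in the other parts of the body. The 27 general subunits with values above 0 had group means between 53.1 FPKM (Rpt4) and 242.6 FPKM (Prosbeta7) in other parts from unrestrained dATF-2KO fathers, with a median of 106.2 FPKM. In heads from unrestrained dATF-2KO fathers they lay between 34.3 FPKM (Rpt4) and 87.9 FPKM (Pros25), with a median of 49.6 FPKM. Paralogs had a median of 31.3 FPKM in the other parts of that group, between 10.6 FPKM (Prosalpha3T) and 91.4 FPKM (Prosbeta4R2), and a median of 0.255 FPKM in its heads. The ratio of the other parts' mean to the head mean had a median of 209 over the 13 paralogs, from 6.25 (Rpt4R) to 1581 (Prosbeta4R2), and of 1.98 over the 27 general subunits, from 1.27 to 3.18. Over the 9268 genes with at least 1 FPKM in both, the median ratio was 0.970. Each table was scaled on its own, and the head level was part of the rule, so these ratios are a description with no test. In such bulk samples, fewer cells of a type and less RNA per cell cannot be told apart.

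**Figure D1:**
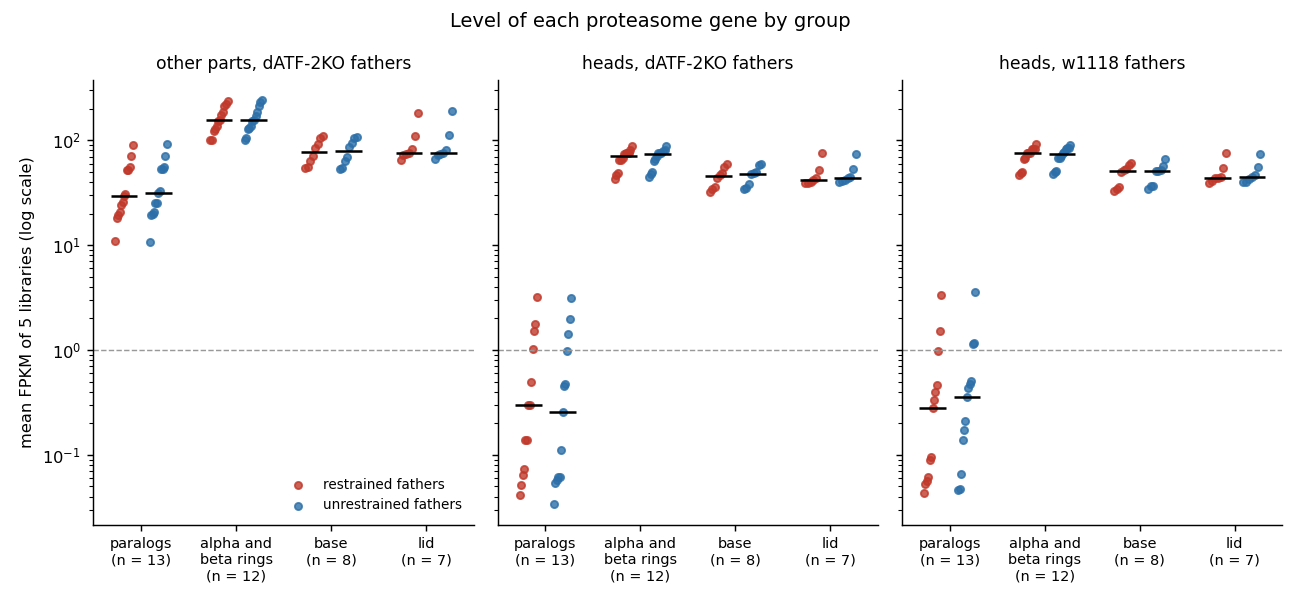
Level of each proteasome gene, as the mean FPKM of 5 libraries on a log scale, in other parts from dATF-2KO fathers, heads from dATF-2KO fathers and heads from w1118 fathers. Each point is a gene, in red for restrained and blue for unrestrained fathers, black bars are medians, the dashed line marks 1 FPKM and Prosalpha1, listed at 0, is left out. In heads the 13 paralogs lie between 0.0337 and 3.60 FPKM and no general subunit is under 32.1 FPKM, while in other parts the paralogs lie between 10.6 and 91.4 FPKM.

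Within the general subunits, genes of the core particle had a higher median value per length than those of the regulatory particle, while single genes overlapped. In other parts from unrestrained dATF-2KO fathers the 6 alpha subunits had a median of 163.7 FPKM, with Prosalpha7 highest at 214.6 FPKM, and the 6 beta subunits had a median of 144.6 FPKM. The 5 Rpt ATPases of the base had a median of 86.8 FPKM, the 3 other base subunits (the scaffold proteins Rpn1 and Rpn2 and the ubiquitin receptor Pros54, now Rpn10) had 69.9 FPKM, and the 7 lid subunits had 75.3 FPKM. Rpn6, a lid subunit that contacts the core particle, was the highest in the lid at 188.5 FPKM. Rpn9 of the lid (111.5 FPKM) and the ATPase Pros45 (107.7 FPKM) were also above the core genes Pros28.1 (106.2 FPKM) and Pros35 (100.3 FPKM). Within a library, the median of the 12 core genes divided by the median of the 15 regulatory genes was 1.95 to 2.08 in the restrained group of the other parts and 1.97 to 2.09 in its unrestrained group. In heads it was 1.58 to 1.73 with restrained dATF-2KO fathers and 1.51 to 1.75 with unrestrained ones, and 1.59 to 1.71 with restrained w1118 fathers and 1.54 to 1.66 with unrestrained ones. The ranges of restrained and unrestrained libraries overlapped in each table, and every library of other parts was above every head library.

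In other parts from dATF-2KO fathers, the alpha ring paralogs were all below their counterparts, Prosalpha6T and Pros28.1B at the highest and Prosalpha3T at the lowest share. Pros28.1B (now Prosalpha4T2, chr2R:20388387-20389757 in build dm3), a copy of the alpha4 gene Pros28.1 (chrX:16170305-16171620), had 47.8, 53.0, 49.6, 56.5 and 52.2 FPKM in libraries 1 to 5 of restrained fathers, against 56.9, 60.7, 44.5, 55.1 and 50.1 FPKM in libraries 1 to 5 of unrestrained fathers. Pros28.1 itself had 98.6, 96.7, 103, 104 and 99.7 FPKM with restrained fathers, against 107, 107, 104, 109 and 104 FPKM with unrestrained fathers. As a share of Pros28.1 within each library, Pros28.1B came to 51.6% ± 3.16 (SD, n = 5) in the restrained and 50.3% ± 5.21 (SD, n = 5) in the unrestrained group. The second copy, Pros28.1A (now Prosalpha4T1, chr3R:16565830-16582361), was lower, at 18.8, 22.7, 18.7, 23.2 and 20.4 FPKM with restrained fathers, against 21.0, 22.9, 16.3, 24.2 and 18.1 FPKM with unrestrained fathers. Its locus in the tables is shared with 3 other genes, so its value is uncertain. Restrained and unrestrained libraries overlapped for both copies.

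Prosalpha6T (chr2L:13232039-13233058), the alpha6 copy known to be needed for sperm individualization and male fertility, had 55.3, 51.0, 50.7, 63.4 and 57.8 FPKM in other parts with restrained fathers, against 59.7, 61.1, 43.9, 57.9 and 53.4 FPKM with unrestrained fathers. Pros35, the general alpha6 gene (chr2L:10221353-10222503), had 97.1, 98.9, 110.2, 97.5 and 104 FPKM, against 99.3, 98.4, 100.5, 105 and 97.7 FPKM in the same order of groups. The paralog thus had 55.0% ± 7.00 (SD, n = 5) of its counterpart in the restrained and 55.1% ± 7.17 (SD, n = 5) in the unrestrained group. Prosalpha3T (chr3R:26947855-26949239), the alpha3 copy, was the lowest paralog. It had 9.43, 11.3, 10.1, 11.6 and 12.5 FPKM with restrained fathers, against 10.8, 10.8, 9.497, 11.5 and 10.5 FPKM with unrestrained fathers. Pros29, the general alpha3 gene (chr2R:16882405-16883623), had 147, 156, 156, 163 and 162 FPKM, against 161, 163, 142, 158 and 159.5 FPKM, so that Prosalpha3T reached 6.99% ± 0.547 (SD, n = 5) and 6.79% ± 0.296 (SD, n = 5) of it in the restrained and the unrestrained group. Groups overlapped for all 4 genes.

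Among the beta paralogs, the adjacent genes Prosbeta4R1 (chr2L:2653046-2653926) and Prosbeta4R2 (chr2L:2654049-2657102), both copies of the beta4 gene CG17331 (chr2L:16729777-16732133), differed several-fold from each other. In other parts from dATF-2KO fathers, Prosbeta4R2 had the highest mean of the paralogs, at 77.6, 90.5, 77.3, 109 and 98.5 FPKM with restrained fathers, against 95.7, 95.5, 78.3, 94.9 and 92.5 FPKM with unrestrained fathers. Prosbeta4R1 had 23.4, 22.8, 22.2, 27.6 and 25.5 FPKM, against 24.7, 27.3, 22.4, 27.1 and 25.1 FPKM, and so was below Prosbeta4R2 in all 10 libraries. CG17331 had 126, 131, 135, 129.9 and 135 FPKM, against 133, 135, 133, 141 and 137 FPKM. Prosbeta4R2 was 68.8% ± 10.3 (SD, n = 5) of CG17331 with restrained fathers and 67.1% ± 5.01 (SD, n = 5) with unrestrained fathers. The locus of Prosbeta4R2 in the tables holds 1 other gene, so its value is uncertain, and how reads were split between related copies is not stated.

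Prosbeta5R (now Prosbeta5R1, chr2R:19196177-19197339), the paralog of the chymotrypsin-like subunit Prosbeta5 (chr2R:6707469-6708685), had the second highest mean there. It had 72.5, 66.8, 64.0, 76.2 and 76.9 FPKM with restrained fathers, against 71.8, 80.4, 59.2, 77.6 and 65.4 FPKM with unrestrained fathers, while Prosbeta5 had 129.5, 136, 140.1, 141 and 144 FPKM, against 139, 143, 130.3, 135 and 135 FPKM. The share of the counterpart was 51.6% ± 4.17 (SD, n = 5) with restrained and 51.8% ± 5.10 (SD, n = 5) with unrestrained fathers. The trypsin-like subunit Prosbeta2 (chr3L:14993051-15007162) has a pair of copies with lower shares. Prosbeta2R1 (chrX:5703036-5704191), the only one of the 13 paralogs on the X chromosome, had 24.2, 26.3, 23.9, 28.2 and 27.1 FPKM, against 27.3, 27.1, 21.6, 28.0 and 23.0 FPKM. Prosbeta2R2 (chr3R:1043473-1045168) had 19.4, 19.5, 17.1, 20.4 and 19.9 FPKM, against 19.2, 21.6, 16.4, 20.6 and 18.8 FPKM. Prosbeta2 had 136, 127, 129, 129 and 125 FPKM, against 124, 127, 134, 126 and 133 FPKM. In these 5 genes too the restrained and the unrestrained libraries overlapped.

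Of the regulatory particle, 3 ATPases of the base and 1 lid subunit have a paralog among the members. Rpt3R (chr3R:5580455-5585035, a locus shared with 1 other gene) had 28.8, 28.6, 27.6, 32.8 and 30.7 FPKM with restrained fathers, against 31.9, 32.4, 29.4, 33.9 and 28.6 FPKM with unrestrained fathers. Rpt3 (chrX:11019221-11020840) had 66.0, 63.7, 64.6, 63.5 and 62.5 FPKM, against 59.2, 62.0, 65.8, 63.1 and 64.6 FPKM, which put Rpt3R at 46.4% ± 3.83 (SD, n = 5) and 49.8% ± 4.89 (SD, n = 5) of it in the restrained and the unrestrained group. Rpt4R (chr3L:11935123-11936585) had 16.8, 19.0, 16.3, 18.5 and 20.4 FPKM, against 21.0, 21.7, 15.4, 21.9 and 18.2 FPKM. Rpt4 (chrX:6182156-6189148) had 55.3, 56.3, 58.3, 54.4 and 54.2 FPKM, against 53.2, 54.9, 55.8, 52.7 and 48.8 FPKM in other parts, a locus shared with 4 other genes, and Rpt4R reached 32.7% ± 3.72 (SD, n = 5) and 37.1% ± 5.55 (SD, n = 5) of it.

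Rpt6R (chr3R:26407920-26409419) had 28.2, 31.8, 26.1, 34.1 and 34.3 FPKM with restrained fathers, against 34.2, 34.2, 27.2, 35.4 and 32.5 FPKM with unrestrained fathers. Its counterpart Pros45 (now Rpt6, chrX:21178613-21188690) had 113, 107, 113, 111 and 108 FPKM, against 109.6, 112, 101.1, 110.2 and 105 FPKM, and Rpt6R came to 28.09% ± 3.76 (SD, n = 5) and 30.3% ± 2.02 (SD, n = 5) of it in the restrained and the unrestrained group. The lid paralog Rpn12R (chr3L:15007795-15058077) had the highest mean share of its counterpart in both groups. It had 48.4, 53.0, 44.7, 57.4 and 54.4 FPKM with restrained fathers, against 57.3, 54.7, 47.2, 55.9 and 50.1 FPKM with unrestrained fathers. Rpn12 (chr3L:16576128-16577122) had 72.0, 73.9, 74.8, 77.0 and 73.4 FPKM, against 73.5, 73.1, 71.9, 78.0 and 71.3 FPKM, a share of 69.5% ± 6.15 (SD, n = 5) and 72.1% ± 4.68 (SD, n = 5) for Rpn12R. The locus given for Rpn12R spans 13 other genes, so this value is uncertain as well.

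**Figure D2:**
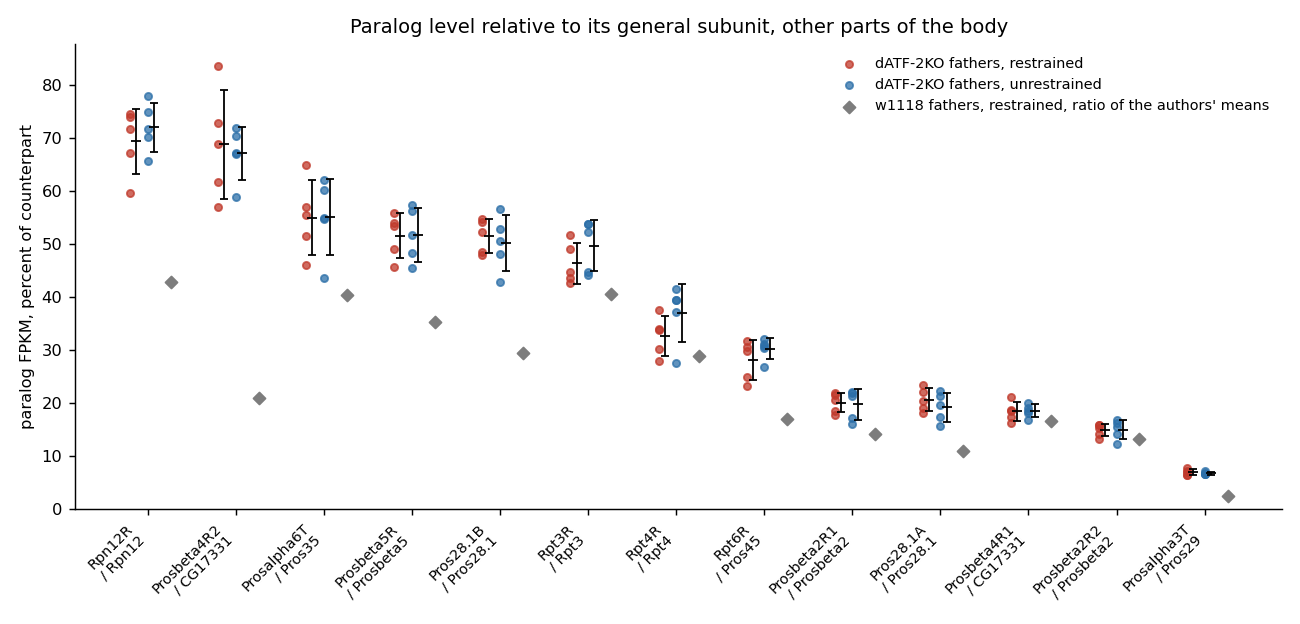
FPKM of each of the 13 paralogs as a percentage of the FPKM of its general subunit in the same library of other parts. Red and blue points are the 5 libraries each of restrained and unrestrained dATF-2KO fathers, bars show mean ± SD, and grey diamonds are ratios of the authors' means for restrained w1118 fathers, with no error. Rpn12R, at 59.8 to 77.9%, and Prosbeta4R2, at 57.1 to 83.7%, lie highest, and Prosalpha3T lies lowest, at 6.42 to 7.72%.

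Added up within a library, the 13 paralogs came to 41.3 to 52.2% of their 10 summed counterparts in other parts with restrained dATF-2KO fathers and to 41.6 to 51.2% with unrestrained dATF-2KO fathers. In heads the same share was 1.37 to 1.75% with restrained and 1.37 to 1.83% with unrestrained dATF-2KO fathers. With w1118 fathers it was 1.18 to 1.34% in restrained and 1.12 to 1.69% in unrestrained heads. This ratio within a library does not depend on the scaling of the tables. Restrained and unrestrained libraries overlapped in all 3 tables.

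In heads, a few paralogs were measurable and most were near 0. Rpt4R had 2.98, 3.44, 3.63, 2.94 and 3.16 FPKM in heads from restrained dATF-2KO fathers, against 2.74, 3.57, 3.14, 3.71 and 2.54 FPKM from unrestrained ones, and 3.18, 3.20, 3.52, 3.60 and 3.16 FPKM from restrained w1118 fathers, against 3.73, 3.498, 3.07, 3.79 and 3.94 FPKM from unrestrained ones. That was 7.80 to 11.7% of Rpt4 in the 20 head libraries, the highest share of any paralog there. Rpt3R had 1.55 to 3.03% of Rpt3 and Pros28.1A 1.45 to 4.48% of Pros28.1. Prosbeta2R1, Prosbeta4R1, Prosbeta4R2, Prosbeta5R, Rpt6R and Rpn12R had less than 1% of their counterparts in each head library, and each was listed at 0 in at least 1 of them.

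Prosalpha6T, singled out here after its values were seen, had a higher head level with dATF-2KO than with w1118 fathers. Heads from restrained dATF-2KO fathers had 0.987, 1.75, 2.07, 2.21 and 1.89 FPKM and those from unrestrained dATF-2KO fathers 2.12, 1.86, 1.84, 1.88 and 2.19 FPKM. Heads from restrained w1118 fathers had 0.261, 0.461, 0.683, 0.201 and 0.398 FPKM and those from unrestrained w1118 fathers 0.366, 0.687, 0.186, 0.415 and 0.695 FPKM. All 10 libraries of dATF-2KO fathers were thus above all 10 of w1118 fathers. The share of all genes that separate the head tables in this way was not counted, so whether such a separation is unusual was not tested. As a share of Pros35, which is free of the scaling, Prosalpha6T was 3.86% ± 1.05 (SD, n = 5) and 4.15% ± 0.469 (SD, n = 5) in restrained and unrestrained heads from dATF-2KO fathers, against 0.801% ± 0.358 (SD, n = 5) and 0.926% ± 0.447 (SD, n = 5) in restrained and unrestrained heads from w1118 fathers. Testis markers summed to 84.6 to 99.9 FPKM in heads from dATF-2KO fathers and to 69.4 to 94.2 FPKM in heads from w1118 fathers. Most of that sum was bol, at 72.8 to 82.1 FPKM against 53.8 to 69.8 FPKM. Medians of the other markers over the head libraries went both ways between the genotypes. The sperm gene dj was lower with dATF-2KO fathers, at 0.248 FPKM against 0.556 FPKM, and mia was higher, at 2.15 FPKM against 2.08 FPKM. The genotype difference was not tested, and genotype and table cannot be told apart.

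In other parts from restrained w1118 fathers, the authors' means for the general subunits were mostly above the means for restrained dATF-2KO fathers, and those for the paralogs mostly below. The w1118 value divided by the dATF-2KO value had a median of 0.860 over the 13 paralogs, of which 9 were under 1, and of 1.21 over the 27 general subunits, of which 1 was under 1. It was lowest for Prosbeta4R2, whose authors' mean was 33.9 FPKM with w1118 fathers, against a mean of 90.5 FPKM with dATF-2KO fathers (ratio 0.374), and for Prosalpha3T, at 4.77 FPKM against 10.98 FPKM. In these w1118 means Prosbeta5R was highest of the paralogs, at 61.3 FPKM. Over 12010 genes with at least 1 FPKM in both, the median ratio was 1.01, and 5869 of them were under 1. Of the 20 testis germline markers, 17 were also lower with w1118 fathers, with a median ratio of 0.646, and their sum was 3324 FPKM as the authors' mean with w1118 fathers, against 6190 to 7664 FPKM per library with restrained dATF-2KO fathers. Markers of other tissues differed too. Photoreceptor markers summed to 229.1 FPKM as the authors' mean with w1118 fathers, against 19.5 to 21.9 FPKM with restrained dATF-2KO fathers, and accessory gland markers to 60131 FPKM, against 47362 to 52384 FPKM. Egg and yolk genes summed to 128.3 FPKM as the authors' mean, which lay within the range with restrained dATF-2KO fathers. That range was 10.8 to 3091 FPKM per library, with a median of 12.0 FPKM, so a mean and a median are not alike here. Shares of the counterpart were lower for all 13 paralogs in the w1118 means, from 2.46% (Prosalpha3T) to 43.0% (Rpn12R), and 29.3% for the paralogs summed. These are 2 separately scaled tables, 1 of which has no library values, so genotype and table cannot be told apart and the part of these tissues' RNA in the difference was not tested.

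Paralogs and counterparts also differed in gene structure, which the rule did not use. All 4 general members on the X chromosome (Pros28.1, Rpt3, Rpt4 and Pros45) have a paralog among the members, and all of those paralogs are on autosomes. Of the 24 general members on autosomes, 5 have one. In 8 of the 13 pairs the paralog has fewer coding exons than its counterpart in the current annotation, in 5 the same number and in 0 more, and 8 paralogs are on another chromosome arm than their counterpart. Pros28.1A, Prosalpha3T and Prosalpha6T each have 1 coding exon, where Pros28.1, Pros29 and Pros35 each have 3. Coding lengths were equal in 1 pair, at 747 bases for both Pros28.1A and Pros28.1, while Prosbeta2R2 has 966 and Prosbeta2R1 921 bases, against 816 for Prosbeta2, and Prosbeta5R has 945, against 846 for Prosbeta5. CG31742 and CG6789, paralogs outside the rule, had the same pattern of levels, with 18.7% ± 1.19 and 19.9% ± 1.47 of Prosbeta5 and CG13349 in other parts from restrained dATF-2KO fathers (SD, n = 5 each).

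The comparison of restrained with unrestrained fathers asks whether the father's stress altered these genes in his sons. It could not be made in other parts from w1118 fathers, the group in which the paper reported nearly all of its expression changes. The results below do not cover that group. In other parts from dATF-2KO fathers, no proteasome gene passed the test. Of the 40 members tested by limma on log2(FPKM + 0.5), 0 were called higher and 0 lower at an adjusted p under 0.05 and a fitted change of at least 1.4-fold, where 0.121% of all 12363 genes tested were called higher and 0.0243% lower. With no threshold on the fold 0 members passed either, against 0.121% higher and 0.0404% lower of all genes. At an unadjusted p under 0.05, 0 members were higher and 1 lower, against 3.07% and 4.26% of all genes. In 0 members did the libraries of the groups not overlap, against 0.906% higher and 1.09% lower of all genes. The median log2 change was −0.022 over the 13 paralogs, −0.00024 over the 27 general subunits and −0.016 over all genes tested. The 95% intervals of all 40 members lay within 1.4-fold in either direction, from 0.799 to 1.21-fold for paralogs and from 0.874 to 1.12-fold for general subunits. Accessory gland markers, 14 genes, summed to 47362 to 52384 FPKM in these restrained libraries and to 39357 to 43986 FPKM in the unrestrained ones, which do not overlap. Their part in the values here was not tested.

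Pros28.1 (alpha4) was the member under the unadjusted threshold in other parts. With the values given above, its restrained libraries were mostly below its unrestrained ones, with an overlap, and its log2 change was −0.079 (SE 0.033), which did not pass (limma adjusted p = 0.655). The largest changes of other general subunits were also small. Prosbeta3, a non-catalytic beta subunit, had 129, 124, 114, 122 and 124 FPKM with restrained fathers, against 134, 121, 141, 125 and 131 FPKM with unrestrained fathers, a log2 change of −0.085 (SE 0.049, limma adjusted p = 0.755). Rpt4 had a log2 change of 0.07 (SE 0.042, limma adjusted p = 0.765). Among the paralogs, Rpt4R had −0.10 (SE 0.10), Rpt6R −0.082 (SE 0.092) and Rpt3R −0.072 (SE 0.061), with limma adjusted p between 0.845 and 0.873. Restrained and unrestrained libraries overlapped for each of these genes.

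**Figure D3:**
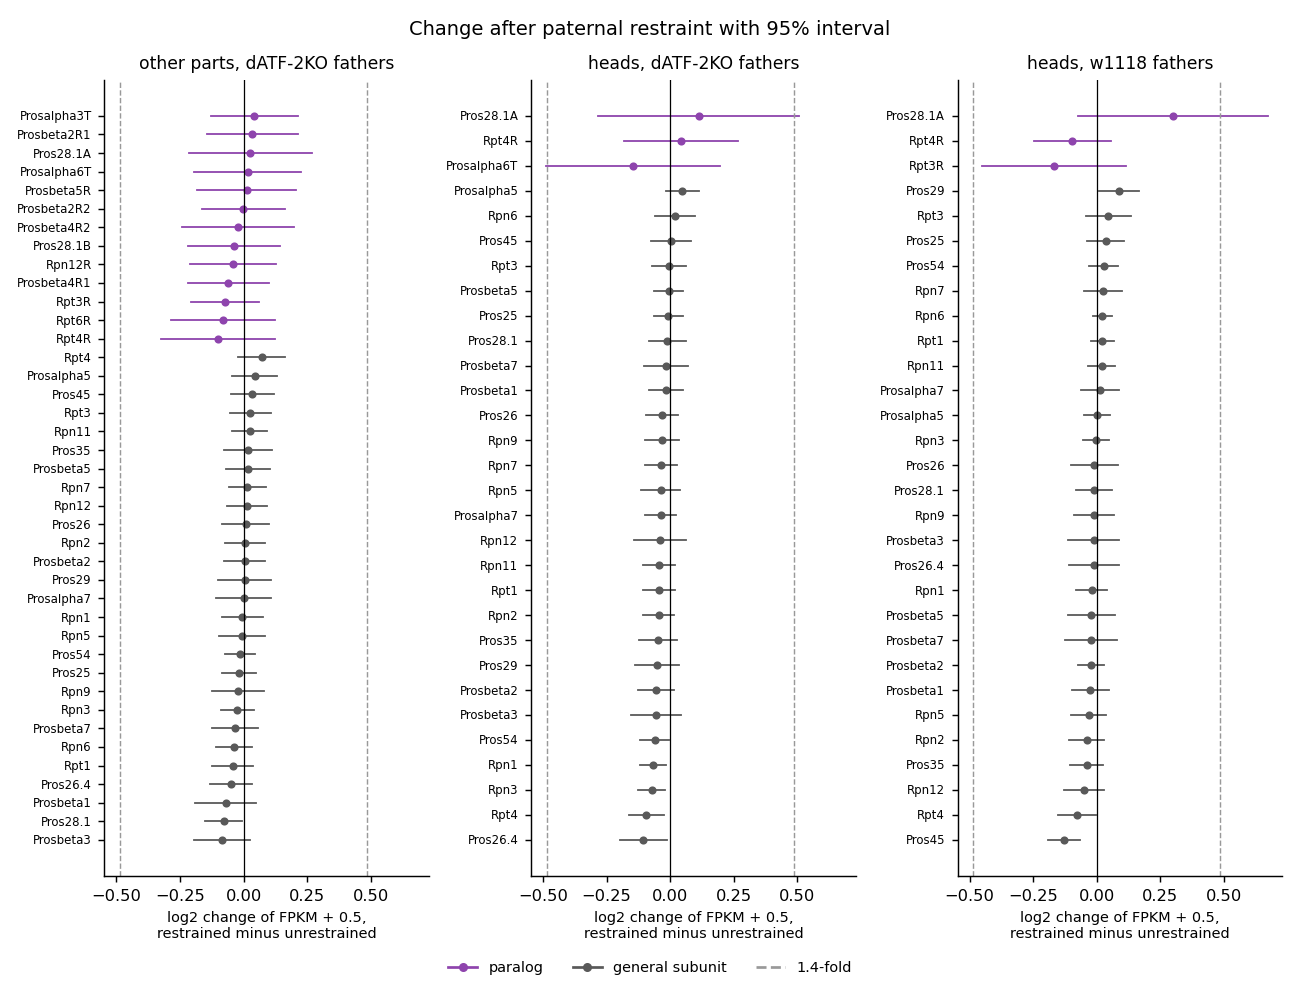
Fitted log2 change of FPKM + 0.5, restrained minus unrestrained fathers, for each member tested, with its 95% interval, in other parts from dATF-2KO fathers and in heads from dATF-2KO and w1118 fathers. Paralogs are in purple, general subunits in grey, and dashed lines mark 1.4-fold. No point reaches 1.4-fold, and the widest intervals are those of Pros28.1A and Prosalpha6T in heads.

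Libraries of other parts varied more in the paralogs than in the general subunits, and the paralogs varied together. The SD of log2(FPKM + 0.5) within groups had a median of 0.139 over the paralogs, 0.049 over the general subunits and 0.114 over all genes tested. Unrestrained replicate 3 was the lowest of its group for 12 of 13 paralogs and for 15 of 20 testis germline markers, against 4803 of all 12363 genes. Restrained replicate 3 was the lowest of its group for 11 of 13 paralogs and 12 of 20 testis markers, against 5598 of all genes. The median log2 distance from the group mean was −0.22 for the paralogs and −0.19 for the testis markers in unrestrained replicate 3, and −0.14 and −0.13 in restrained replicate 3. At the high end, restrained replicate 4 was at 0.15 and 0.13. The general subunits stayed between −0.011 and 0.018 in all 10 libraries. Whether testis RNA varied with the paralogs for a shared reason was not tested. Without restrained replicate 3, or without any other single library, 0 members were called.

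**Figure D4:**
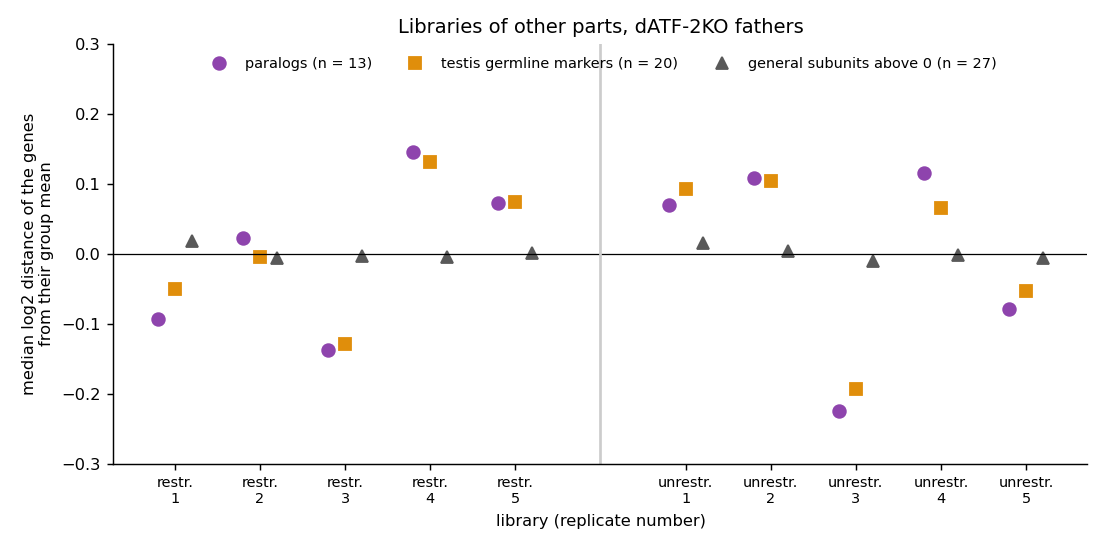
Median log2 distance of the 13 paralogs (purple circles), 20 testis germline markers (orange squares) and 27 general subunits (grey triangles) from their own group mean, in each of the 5 restrained and 5 unrestrained libraries of other parts from dATF-2KO fathers. Paralogs and markers lie on the same side of 0 in 9 of the 10 libraries, and the general subunits stay near 0.

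In heads from dATF-2KO fathers, no proteasome gene passed the test either, although most general subunits had a small negative estimate. Of 30 members tested, 0 were called higher and 0 lower, where 0% of all 9975 genes were called higher and 0.01% lower. With no threshold on the fold 0 members passed, against 0% higher and 0.0501% lower of all genes. At an unadjusted p under 0.05, 0 members were higher and 5 lower, against 6.05% and 4.39% of all genes, and in 0 members did the groups' libraries not overlap, against 1.43% higher and 0.792% lower of all genes. The median log2 change was −0.038 over the 27 general subunits, of which 24 had a negative estimate, and −0.002 over all genes tested, of which 5135 had one. Other scalings of the libraries gave 24 or 25 negative estimates and leaving out single libraries gave 22 to 26. Intervals of the general subunits ran from 0.871 to 1.08-fold. In the other tables fewer of the 27 were negative, at 17 in heads from w1118 fathers and 14 in other parts from dATF-2KO fathers.

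The 5 genes lower at an unadjusted p under 0.05 in these heads are 2 ATPases (Rpt4 and Pros26.4, now Rpt2), the scaffold subunit Rpn1, the lid subunit Rpn3 and the ubiquitin receptor Pros54. Rpt4 had 32.5, 32.9, 30.9, 32.3 and 31.9 FPKM with restrained fathers, against 35.1, 35.5, 35.3, 33.7 and 32.0 FPKM with unrestrained fathers, a log2 change of −0.094 (SE 0.031, limma adjusted p = 0.336). Rpn1 had 37.3, 35.1, 35.7, 37.1 and 35.7 FPKM, against 36.9, 38.0, 38.9, 38.0 and 38.0 FPKM, a change of −0.068 (SE 0.022, limma adjusted p = 0.336). In both genes the groups overlapped, through 1 unrestrained library that lay below the highest restrained one. Rpn3 had 39.3, 38.0, 40.8, 40.0 and 38.7 FPKM, against 41.2, 42.4, 42.0, 39.8 and 41.7 FPKM, a change of −0.073 (SE 0.025, limma adjusted p = 0.346). Pros26.4 had 41.9, 41.7, 47.1, 44.0 and 45.4 FPKM, against 48.3, 48.8, 49.8, 45.9 and 44.4 FPKM, a change of −0.11 (SE 0.041, limma adjusted p = 0.402). None of them passed. Of the paralogs, Prosalpha6T had a log2 change of −0.15 (SE 0.15, limma adjusted p = 0.789) and Pros28.1A one of 0.11 (SE 0.18, limma adjusted p = 0.875). Pros28.1A had 1.64, 1.31, 1.59, 1.68 and 1.45 FPKM in these heads with restrained fathers, against 1.34, 1.94, 1.36, 1.79 and 0.718 FPKM with unrestrained fathers, and the groups overlapped.

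In heads from w1118 fathers, again no proteasome gene passed. Of 30 members tested, 0 were called higher and 0 lower, where 0.0504% of all 9924 genes were called higher and 0.0403% lower. With no threshold on the fold 0 members passed either, against 0.645% higher and 0.464% lower of all genes. At an unadjusted p under 0.05, 1 member was higher and 2 lower, against 7.06% and 8.69% of all genes, and in 1 member, lower, the libraries of the groups did not overlap, against 2.73% higher and 2.69% lower of all genes. The median log2 change was −0.011 over the general subunits and −0.0085 over all genes, and intervals of the general subunits ran from 0.877 to 1.12-fold.

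The member without overlap is Pros45, the Rpt6 ATPase of the base, whose locus in the tables is shared with 1 other gene. It had 60.7, 61.8, 57.2, 59.3 and 61.7 FPKM with restrained w1118 fathers, against 68.4, 64.9, 64.0, 64.8 and 66.8 FPKM with unrestrained w1118 fathers, so that every restrained library was below every unrestrained one. Its log2 change was −0.13 (SE 0.028, 95% interval −0.19 to −0.068), which missed the threshold (limma adjusted p = 0.0624, and 0.0534 to 0.190 under the alternatives). Rpt4, another ATPase, had 34.4, 35.2, 36.4, 34.3 and 33.0 FPKM, against 35.2, 37.3, 37.8, 37.9 and 34.8 FPKM, with a change of −0.078 (SE 0.034, limma adjusted p = 0.304). Pros29 (alpha3) had 72.8, 79.0, 77.4, 75.9 and 72.1 FPKM, against 72.2, 73.5, 70.2, 73.0 and 66.1 FPKM, with a change of 0.087 (SE 0.036, limma adjusted p = 0.282). For Rpt4 and Pros29 the groups overlapped. The paralog Pros28.1A had the largest estimate, with 2.17, 1.10, 1.35, 1.44 and 1.55 FPKM, against 1.02, 0.884, 0.885, 1.41 and 1.51 FPKM, and a change of 0.30 (SE 0.17, limma adjusted p = 0.432). Rpt3R had 1.21, 1.03, 0.918, 0.903 and 0.836 FPKM, against 1.13, 1.54, 1.17, 0.943 and 1.05 FPKM. The groups overlapped for Pros28.1A and Rpt3R. The change of Rpt3R was −0.17 (SE 0.13) and that of Rpt4R was −0.096 (SE 0.068), with limma adjusted p of 0.583 and 0.549.

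Members under 1 FPKM in heads were fitted only when the filter was left out. Of these, 10 were above 0 with each father genotype, and 0 passed, as did 0% of all genes of that kind (4324 with w1118 and 4288 with dATF-2KO fathers) in either direction. Prosbeta4R2 came nearest in heads from w1118 fathers, where it was listed at 0, 0, 0.0321, 0.0989 and 0.0840 FPKM with restrained fathers, against 0.1804, 0.169, 0.183, 0.175 and 0.342 FPKM with unrestrained fathers. Groups did not overlap there, and it was the only one of the 10 without overlap, against 0.463% lower and 0.254% higher of the 4324 genes. Its log2 change on the scale of FPKM + 0.5 was −0.39 (SE 0.08, limma adjusted p = 0.0827). In heads from dATF-2KO fathers it was listed at 0, 0.288, 0, 0.0696 and 0.332 FPKM with restrained fathers, against 0.196, 0, 0, 0.0928 and 0 FPKM with unrestrained fathers, and these groups overlapped, as they did for the other 9 members there, against 0.326% of the 4288 genes higher and 0.35% lower without overlap. Values this low carry an unknown counting error.

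**Figure D5:**
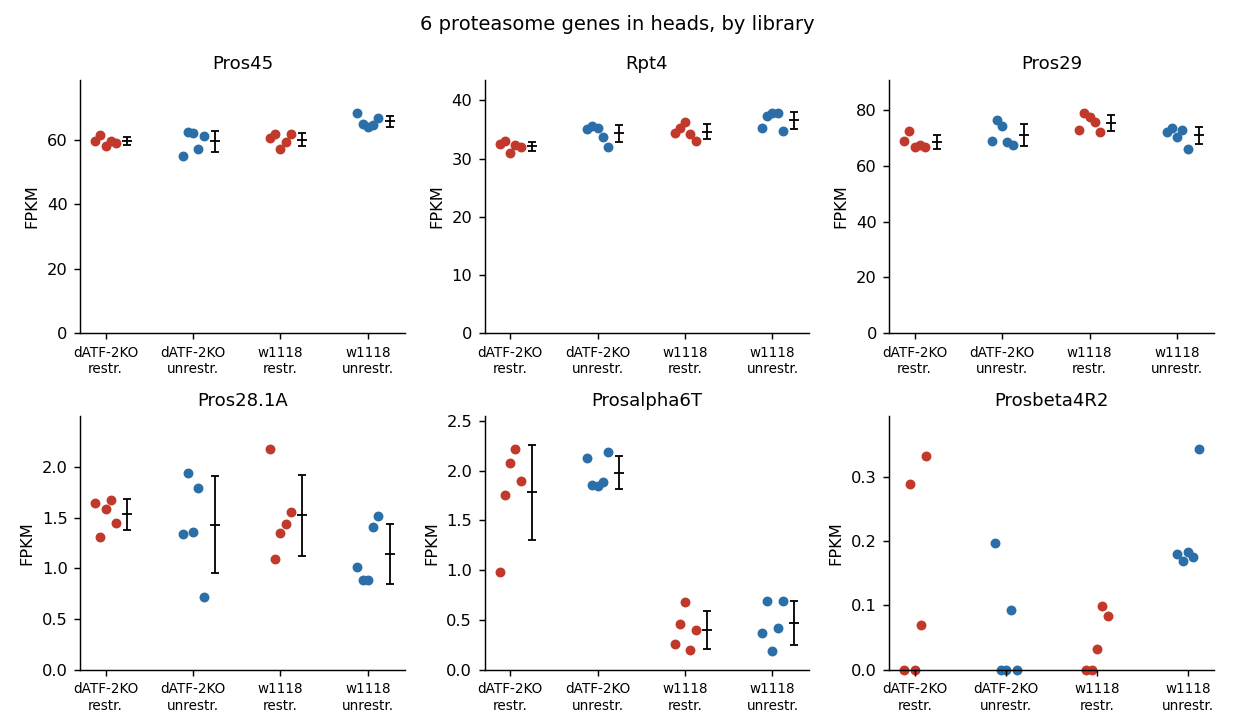
FPKM in heads, by library, of the general subunits Pros45, Rpt4 and Pros29 and the paralogs Pros28.1A, Prosalpha6T and Prosbeta4R2. Points are the 5 libraries of each group, in red for restrained and blue for unrestrained fathers of each genotype, and bars are mean ± SD, left out for Prosbeta4R2, which has values listed at 0. Pros45 separates the groups with w1118 fathers, at 57.2 to 61.8 against 64.0 to 68.4 FPKM, and overlaps with dATF-2KO fathers.

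The difference of the change between father genotypes in heads, dATF-2KO minus w1118, was fitted as an interaction over the 20 head libraries. Of 31 members tested, 0 passed in either direction, where 0.0801% of all 9982 genes had a higher and 0.0701% a lower change in dATF-2KO. At an unadjusted p under 0.05, 1 member was higher and 3 lower, against 6.5% and 4.97% of all genes. The lower ones were Pros29, Pros54 and Rpn3, and Pros45 was the higher one. Its head levels were 59.6, 61.5, 58.3, 59.6 and 59.1 FPKM with restrained dATF-2KO fathers, against 55.2, 62.4, 62.1, 57.1 and 61.1 FPKM with unrestrained ones, and the difference between its changes in the genotypes was 0.13 (SE 0.046, limma adjusted p = 0.289). Pros29 had a difference of −0.14 (SE 0.055, limma adjusted p = 0.331), with 69.0, 72.5, 66.8, 67.5 and 66.8 FPKM in heads from restrained dATF-2KO fathers, against 69.0, 76.6, 74.1, 68.6 and 67.3 FPKM from unrestrained ones. Pros54 had a difference of −0.088 (SE 0.036, limma adjusted p = 0.357). It had 48.6, 45.3, 46.0, 48.6 and 45.6 FPKM with restrained dATF-2KO fathers, against 49.4, 48.9, 50.0, 48.7 and 47.4 FPKM with unrestrained ones, and 52.0, 53.8, 52.2, 54.4 and 50.7 FPKM with restrained w1118 fathers, against 52.4, 50.1, 50.6, 53.6 and 51.5 FPKM with unrestrained ones. Restrained and unrestrained libraries overlapped for Pros54 in both genotypes. Among the paralogs the differences were 0.20 for Rpt3R (SE 0.16), −0.19 for Pros28.1A (SE 0.25) and 0.14 for Rpt4R (SE 0.12), with limma adjusted p between 0.687 and 0.840. Rpt3R had 1.11, 0.904, 0.798, 1.07 and 1.18 FPKM with restrained dATF-2KO fathers, against 0.968, 0.935, 0.854, 1.06 and 1.05 FPKM with unrestrained ones, which overlapped. For none of these genes was a difference between the genotypes shown.

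Genes that act on or beside the proteasome were likewise not called in any of these comparisons. The 7 regulators listed had 0 called of 7 tested in each table. They include the activator REG, the regulator PI31, the assembly chaperone Pomp and the F-box protein ntc. The others are the transcription factors cnc and maf-S and Keap1, an inhibitor of cnc. In heads from w1118 fathers, maf-S averaged 140.1 FPKM with restrained fathers, against 127.0 FPKM with unrestrained fathers, with a log2 change of 0.14 (SE 0.038, limma adjusted p = 0.110), and Pomp averaged 47.4 FPKM, against 45.1 FPKM, with 0.073 (SE 0.028, limma adjusted p = 0.236). Neither passed. PI31 and ntc, partners in sperm differentiation of flies, were both higher in other parts than in heads, as the tables were scaled. There ntc averaged 97.1 FPKM in other parts and 5.12 FPKM in heads with restrained dATF-2KO fathers, and PI31 averaged 172.8 FPKM and 62.9 FPKM. In the same groups Pomp (89.95 against 44.7 FPKM) and REG (66.5 against 51.2 FPKM) were also higher in other parts. The other regulators, cnc (75.8 against 76.4 FPKM), Keap1 (7.32 against 7.85 FPKM) and maf-S (132.4 against 145.3 FPKM), were lower there. The general subunits were higher in other parts as well, so this direction is not particular to PI31 and ntc. Of 11 genes of ubiquitin supply and delivery, such as the activating enzyme Uba1 and the segregase TER94, 0 were called in other parts, where all 11 were tested, and 0 in either head table, where 10 were. Of the 8 proteasome genes under other symbols, 0 were called, among 7 tested in other parts and 5 in each head table.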

How the data were processed

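Poly(A) RNA of pooled males was sequenced, and the authors deposited FPKM values per gene, which the sources say were made with TopHat2 and Cufflinks tools on build dm3 (no versions stated). The 4 tables were scaled separately, and depth is unknown. In the table of other parts from w1118 fathers, 12 library columns bear no sample name and were not used, and columns of the authors' own ratios and p-values were used in no table, so the test planned there was not made. For the other tables, genes averaging 1 FPKM or more were fitted on log2(FPKM + 0.5) with limma 3.58.1 (R 4.3.3) with a mean-variance trend, two-sided, with Benjamini-Hochberg adjustment over each table. Calls needed both an adjusted p under 0.05 and a 1.4-fold or larger change, and the interaction had no threshold on the fold. The fits were tested on simulated data.

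Members and lists were chosen with earlier results of these data known. Values by library are given for paralogs with their counterparts, and for the 5 members with the largest change and the 3 with the smallest adjusted p in each comparison. Alternatives were other pseudocounts (0.1 and 1), filters (none and 5 FPKM), quantile and median scaling, a replicate block and leaving out each library. Positions are as deposited, and current names (41 of 41 matched), coding lengths and exon counts came from a current annotation of another build. The locus given for 16 members is shared with other genes, and how reads were assigned among the genes of a shared locus is not stated.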

Additional observations from a re-analysis of the deposited data

Results flagged for a closer look

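In 10 of 200 groups of 5 libraries, the highest or lowest library of a proteasome gene stood apart from the other 4 by more than 0.71 of the group's range, where chance gives about 1 in 20. In other parts from dATF-2KO fathers, restrained replicate 3 was low for Rpn6 (176.0 FPKM), unrestrained replicate 3 was low for Prosbeta4R2 (78.3 FPKM) and Pros29 (141.5 FPKM), and unrestrained replicate 5 was high for Pros54 (107.9 FPKM). In heads from dATF-2KO fathers, restrained replicate 3, the library with egg and yolk transcripts, was high for Pros26 (66.7 FPKM) and Prosbeta3 (46.4 FPKM). In heads from w1118 fathers, restrained replicate 4 was high for Rpt3 (58.3 FPKM), unrestrained replicate 3 was high for Prosbeta7 (92.2 FPKM) and low for Rpn2 (31.8 FPKM), and unrestrained replicate 5 was low for Prosbeta2 (73.7 FPKM).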

How the results depend on the processing

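Under every alternative run, 0 proteasome genes were called in any of the 4 comparisons. The adjusted p of Pros45 in heads from w1118 fathers was lowest at 0.0534. Small estimates turned sign under at least 1 alternative for 19 of 40 members in other parts, 11 of 30 in heads from dATF-2KO fathers, 10 of 30 in heads from w1118 fathers and 13 of 31 for the interaction, of which 0 had an unadjusted p under 0.05. The median of the general subunits reached 0.0015 in heads from w1118 fathers and 0.0039 in other parts, where it was otherwise reported as −0.011 and −0.00024. Among the members with the largest changes or smallest adjusted p, 2 paralogs in heads from dATF-2KO fathers turned: Pros28.1A was at −0.043 on the log2 scale without unrestrained replicate 5, and Prosalpha6T at 0.0016 without restrained replicate 1. Leaving out single libraries, Pros28.1A ranged from −0.043 to 0.21 and Prosalpha6T from −0.22 to 0.0016. Correlations of deviations between libraries of the same number ran from −0.12 to 0.14, and 1 of 15 was over 0.1. No pairing by number was seen in this measure. Such correlations do not test for a batch that affects only some genes. They also cannot show a shift shared by all genes of a library, since each library is centred over its genes. In other parts, replicate 3 was the lowest of its group for 12 of 13 paralogs in the unrestrained and for 11 in the restrained group. Over all 12363 genes tested there, it was lowest for 4803 in the unrestrained and 5598 in the restrained group. Pairing by number was therefore not excluded. With a replicate block 0 members were called, while over all genes the interaction had 0 genes called with the block and 15 without it, and heads from w1118 fathers 0 and 9. With no filter on low values, over all genes, 6 were called in other parts from dATF-2KO fathers, against 18 with it, and 5 in heads from w1118 fathers, against 9. Leaving out single libraries gave as few as 9 in other parts, 3 in heads from w1118 fathers and 9 for the interaction, and up to 4 in heads from dATF-2KO fathers, against 1. Unknown depth limits the paralogs in heads, whose values near 0 have no counting interval. The planned test of other parts from w1118 fathers could not be made.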
